A study of Mus musculus with 2 samples.

Results

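The genes described here are 7 genes linked to kisspeptin neurons and their control by sex steroids: Kiss1, Tac2, Pdyn, Tacr3, Nhlh2, Esr1 and Pgr. They were chosen by name as rows of the digital expression tables, 7 of 25618 genes present in both tables. Their transcripts were followed over neurons and glia of mouse arcuate nucleus and median eminence, profiled with Drop-seq, which tags each transcript's 3' end with a cell barcode and a unique molecular identifier (UMI). There were 2 libraries. The WT library pooled 7 wildtype CD-1 mice and the Irx5KO library pooled 6 CD-1 mice with the genotype Irx5-/-, both aged 7 to 8 weeks; cells were sorted as live in both. Irx5 encodes an Iroquois homeobox transcription factor. The series as a whole concerns body weight and metabolism in mice without Irx5. With 1 library for each genotype there was no replicate check and no test between genotypes. Each interval below is an exact 95% interval for counting error only. It does not cover differences between mice, dissections or library preparations.

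Kisspeptin neurons of the arcuate nucleus make kisspeptin (from Kiss1), neurokinin B (from Tac2) and dynorphin (from Pdyn), and are called KNDy neurons after these peptides. Neurokinin B acts on its receptor NK3R, encoded by Tacr3, on neighbouring KNDy neurons and excites them. Dynorphin acts on the kappa opioid receptor and quiets them, and kisspeptin drives the secretion of gonadotropin-releasing hormone. Oestradiol and progesterone act on this circuit through the receptors encoded by Esr1 and Pgr, and oestradiol lowers arcuate Kiss1 expression. Nhlh2 encodes a basic helix-loop-helix transcription factor of hypothalamic neurons.

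After filtering, 1841 WT cells with 3960089 UMIs and 1949 Irx5KO cells with 4915775 UMIs were kept, with a median of 1621 and 1692 UMIs per cell. Neuron-like cells, named from 9 pan-neuronal markers, numbered 627 in WT (34.1% of cells) and 896 in Irx5KO (46.0%), with a median of 2129 and 2418.5 UMIs. Irx5 itself gave 13 UMIs in WT and 0 in Irx5KO, where 3 counts would be 0.61 CPM (counts per 1000000 UMIs of the library or cell class). The labels do not name the deleted part of the gene, so the 3' ends counted need not lie in it. The labels do not give the sex of the mice. Xist gave 1 UMI in each library, and the Y-linked gene Ddx3y gave 456 UMIs in WT and 570 in Irx5KO (115.1 and 116.0 CPM). The libraries stood apart in cells of other sources. Pituitary growth hormone transcripts (Gh) gave 25 UMIs in WT and 282 in Irx5KO. Of the neuron-like cells, 17.4% in WT and 7.70% in Irx5KO resembled the suprachiasmatic nucleus, and Npvf, a peptide gene of the dorsomedial hypothalamus, gave 2 and 335 UMIs in neuron-like cells. The part of these differences in the results below was not tested, except where values are given with the clusters weighted alike.

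A single barcode sequence occurred in both libraries. Within a library, many kept barcodes differed from another in base 12 alone, the last of the barcode: 165 such pairs in WT and 354 in Irx5KO, where chance would give 3.63 and 4.07 pairs a single base apart. Of the kept cells, 125 in WT (6.79%) and 249 in Irx5KO (12.8%) shared their first 11 bases with another. Members of these pairs lay in the same cell class in 165 of 165 pairs in WT and 347 of 354 in Irx5KO. In Drop-seq, barcodes that differ in the last base can come from a single bead, so numbers of cells are given for barcodes as deposited and again with barcodes that share 11 bases summed. Summing left 1800 WT and 1801 Irx5KO cells, of which 579 and 776 were neuron-like. The step changed no call of the sums over neuron-like cells given below. The clusters 0 to 10 named below were formed on barcodes as deposited.

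Kiss1 lies at chr1:133321875-133329901 (plus strand), Tac2 at chr10:127724478-127731768 (plus), Pdyn at chr2:129686565-129699844 (minus), Tacr3 at chr3:134829007-134934579 (plus), Nhlh2 at chr3:102010076-102015492 (plus), Esr1 at chr10:4611593-5005614 (plus) and Pgr at chr9:8899833-8968611 (plus), all in mm10. Kiss1 overlaps 3 gene models on the same strand, Golt1a and 2 models of Gm28040, of which 1 shares the 3' end of Kiss1. Reads of that shared end cannot be told apart. How they were assigned to genes is not given, so the Kiss1 counts may include or lack reads of Gm28040 and of the shared end. The other 6 genes overlap no other gene model. The bases before the transcription start of Kiss1, Tac2 and Tacr3 are shown because these ligand and receptor genes mark the cells described below and because Nhlh2 belongs to a family that binds E-boxes (CANNTG). Capitals mark each CANNTG, and sequences are from RefSeq on GRCm38.p6, 5′ to 3′ on the plus strand. The Kiss1 stretch is chr1:133326962-133327134 and stops before an exon of Gm28040 (this start lies inside the span given above), the Tac2 stretch is chr10:127724228-127724477 and the Tacr3 stretch is chr3:134828757-134829006.
Kiss1: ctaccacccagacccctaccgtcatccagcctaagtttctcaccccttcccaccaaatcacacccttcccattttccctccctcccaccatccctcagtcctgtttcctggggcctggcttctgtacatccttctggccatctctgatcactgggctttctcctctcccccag
Tac2: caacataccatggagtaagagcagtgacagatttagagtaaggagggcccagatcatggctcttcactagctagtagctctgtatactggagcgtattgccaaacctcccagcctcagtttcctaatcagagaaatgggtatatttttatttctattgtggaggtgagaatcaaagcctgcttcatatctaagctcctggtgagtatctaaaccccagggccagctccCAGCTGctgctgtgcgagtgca
Tacr3: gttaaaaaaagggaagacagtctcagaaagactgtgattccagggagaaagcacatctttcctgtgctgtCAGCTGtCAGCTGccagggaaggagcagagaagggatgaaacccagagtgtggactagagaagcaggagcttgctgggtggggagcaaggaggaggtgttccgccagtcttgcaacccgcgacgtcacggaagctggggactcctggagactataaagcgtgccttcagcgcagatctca
The Tac2 stretch held 1 CANNTG, 22 bases before the start, and the Tacr3 stretch held 2, at 180 and 173 bases before it, each reading CAGCTG. Among the 250 bases before each start, 5 of the 7 genes (6 of 9 annotated starts) held CANNTG, a word that reads alike on both strands, and 66.2% of 32851 windows of that length genome-wide held it. GGTCA, the core of the oestrogen response element, searched on both strands, was found in the Kiss1 window alone among the 9, at 65 and 36 bases before the start, in the part not printed, and in 35.2% of all windows. The full palindromic oestrogen response element was in 0 of the 9 windows and in 0.0639% of all windows. These matches describe the letters of the windows and show no binding.

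All 7 transcripts were found mainly in neuron-like cells. Between 85.7% (Tacr3) and 95.8% (Tac2) of a gene's UMIs in WT, and between 92.7% (Esr1) and 100% (Tacr3) in Irx5KO, came from neuron-like cells, which held 1812162 and 3087240 UMIs in all. In the 1214 WT and 1053 Irx5KO cells of other classes, median depth 1476.5 and 1414 UMIs, 0.49% and 0.66% had a Kiss1 UMI, against 3.35% and 4.58% of neuron-like cells. The same shares for Tac2 were 1.32% and 2.09% in other classes, against 5.90% and 9.04% of neuron-like cells. Tanycytes, the ventricular glia of the median eminence, gave 4 Kiss1 UMIs in 326 WT cells and 8 in 422 Irx5KO cells. Those levels, 6.15 and 9.80 CPM, were lower than the neuron-like levels of 51.9 and 49.6 CPM, and a contribution of free RNA to them was not tested. Oligodendrocytes, oligodendrocyte precursors, astrocytes and microglia together gave 1 Kiss1 UMI in WT, in an oligodendrocyte, and 0 in Irx5KO. Esr1 and Pgr gave at most 6 UMIs in all non-neuronal classes of a library.

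**Figure D1:**
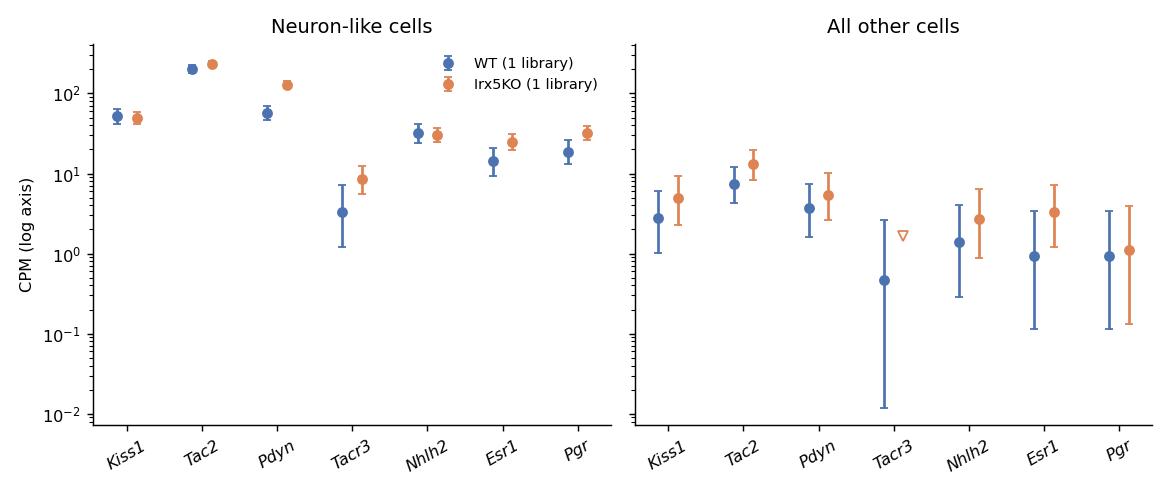
CPM (vertical, log axis) of the 7 genes in neuron-like cells (left) and all other cells (right) of the WT (blue) and Irx5KO (orange) libraries; points are 1 library each, bars are exact 95% Poisson intervals and the open triangle marks 3 counts where none was seen. Every gene was higher in neuron-like cells of both libraries, and Pdyn, Esr1 and Pgr were higher in Irx5KO than in WT neuron-like cells.

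Within neuron-like cells the peptide genes differed in how they compared between genotypes: Kiss1 and Tac2 were close, and Pdyn was higher in Irx5KO. Kiss1 gave 94 UMIs in WT and 153 in Irx5KO, or 51.9 (41.9 to 63.5) and 49.6 (42.0 to 58.1) CPM, a ratio of Irx5KO over WT of 0.955 (0.734 to 1.249). The libraries' intervals overlapped, and the ratio's interval holds values on both sides of 1. Tac2 gave 367 and 723 UMIs, or 202.5 and 234.2 CPM, a ratio of 1.156 (1.018 to 1.315). It was higher in Irx5KO by less than the 1.5-fold used here to call a difference. Pdyn gave 103 and 397 UMIs, or 56.8 and 128.6 CPM, a ratio of 2.262 (1.817 to 2.838). Its level in Irx5KO lay above the upper bound in WT, 68.9 CPM. Pdyn UMIs were also in more cells, 6.70% in WT and 15.8% in Irx5KO, against 0.66% and 0.85% of the cells of other classes. Thinned to 1000 UMIs a cell, which left out 113 WT and 130 Irx5KO neuron-like cells, Pdyn was in 3.89% and 9.01% of them.

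The steroid receptor genes were also higher in Irx5KO. Esr1, the oestrogen receptor alpha gene, gave 26 UMIs in WT and 76 in Irx5KO, or 14.3 and 24.6 CPM, a ratio of 1.716 (1.086 to 2.791). Pgr, the progesterone receptor gene, gave 34 and 99 UMIs, or 18.8 and 32.1 CPM, a ratio of 1.709 (1.147 to 2.603). Both were higher in Irx5KO, with ratio intervals that reach close to 1. Tacr3 gave 6 and 26 UMIs, or 3.31 and 8.42 CPM, a ratio of 2.544 (1.024 to 7.557), and was below the 50 UMIs over both libraries needed for a call. Nhlh2 gave 58 and 94 UMIs, or 32.0 and 30.45 CPM, a ratio of 0.951 (0.679 to 1.343), so that its counts did not separate the libraries. As a mean of the cells' own values its ratio was 0.665. Of the 6 genes with at least 50 UMIs, 3 were at least 1.5-fold higher in Irx5KO neuron-like cells (Pdyn, Esr1 and Pgr) and 0 were lower. Among all 10908 genes with that count, 12.4% were higher, 6.47% were lower and 18.9% were either, with a median log2 ratio of 0.07.

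Over all cells the ratios were larger, beside the larger share of neuron-like cells in Irx5KO. They were 1.305 for Kiss1 (25.3 and 33.0 CPM in WT and Irx5KO), 1.571 for Tac2 (96.7 and 152.0), 2.954 for Pdyn (28.0 and 82.8), 2.359 for Esr1 (7.07 and 16.7) and 2.26 for Pgr (9.09 and 20.6). Tac2, Pdyn, Esr1 and Pgr, 4 of the 6 measured, passed 1.5-fold and 0 were lower, where 12% of 14379 genes were higher, 9.85% were lower and 21.8% were either. When the Irx5KO neuron clusters were given the weights they had in WT, the neuron-like ratios were lower for all 7 genes. They became 0.643 for Kiss1, 0.839 for Tac2, 1.637 for Pdyn, 1.204 for Esr1, 1.411 for Pgr, 0.793 for Nhlh2 and 1.917 for Tacr3. Pdyn stayed past 1.5-fold, Esr1 and Pgr did not, and Kiss1 and Tac2 were lower in Irx5KO, Kiss1 by over 1.5-fold. Over all cells the Tac2 ratio was 1.492 with at least 800 genes a cell, short of a call, and the Kiss1 ratio was 1.579 without the barcode with most Kiss1 in each library. That step left in 4 Irx5KO barcodes that share 11 bases and together held 37 Kiss1 UMIs. With such barcodes taken as 1 cell, the Kiss1 ratio without the top cells was 0.989 in neuron-like cells and was not computed over all cells. Fewer cells of a type and less RNA per cell cannot be told apart in these sums.

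**Figure D2:**
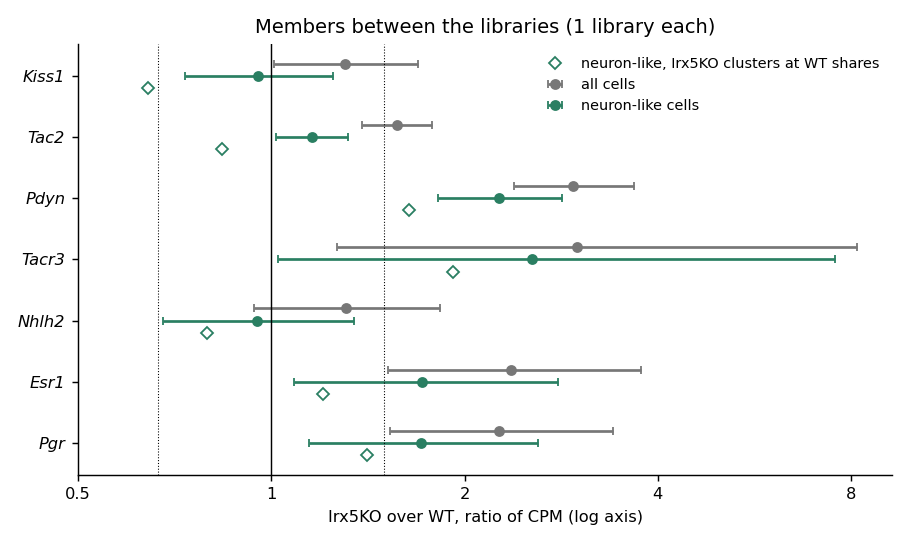
Ratio of CPM, Irx5KO over WT (horizontal, log axis), for each gene over all cells (grey), neuron-like cells (green) and neuron-like cells with the Irx5KO clusters weighted as in WT (open diamonds, no interval); bars are exact 95% intervals from counts of 1 library each, the solid line is no difference and the dotted lines are 1.5-fold. Pdyn lies past 1.5-fold in all 3 forms, while Kiss1 and Nhlh2 lie near or left of 1 in neuron-like cells.

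The neuron-like cells formed 11 clusters when the 7 genes were left out of the clustering, and 2 of these carried most of the Kiss1 and Tac2 transcripts. Cluster 3 (44 WT and 121 Irx5KO cells) had Npvf, Pomc and the prolactin receptor gene Prlr among its leading genes, and cluster 7 (90 and 126 cells) had Ttr, Oxt and Avp. Neither could be given a type name. Over neuron-like cells Ttr gave 306 WT and 9 Irx5KO UMIs, and 293 of the WT UMIs were in a single cell. Pomc gave 311 and 1454, beside the Npvf counts above, so these clusters need not hold the same kinds of cells in both libraries. The part of this in the ratios below was not tested. Kiss1 gave 61 WT and 111 Irx5KO UMIs in cluster 3, or 326.5 (249.8 to 419.4) and 172.3 (141.7 to 207.4) CPM, a ratio of 0.528 (0.383 to 0.733). In cluster 7 it gave 29 and 33 UMIs, or 208.5 and 165.5 CPM (0.794, 0.467 to 1.355). Cluster 3 came before cluster 7 in both libraries, but their intervals overlapped. The other clusters gave at most 4 Kiss1 UMIs each in a library. A single WT cell held 25 of the 94 Kiss1 UMIs. With barcodes that share 11 bases summed, a single Irx5KO cell held 37 of 149. Without these 2 cells the Kiss1 ratio was 0.989 (0.728 to 1.352) over neuron-like cells and 0.593 (0.393 to 0.909) in cluster 3. Without the top cell of each cluster the order of clusters 3 and 7 turned in Irx5KO, to 117.9 and 145.5 CPM, with intervals that again overlapped.

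Tac2 in cluster 3 gave 192 WT and 492 Irx5KO UMIs, or 1028 (887.5 to 1184) and 763.5 (697.5 to 834.0) CPM, a ratio of 0.743 (0.628 to 0.882). In cluster 7 it gave 93 and 197 UMIs, or 668.8 (539.8 to 819.3) and 988.1 (854.9 to 1136) CPM, a ratio of 1.477 (1.149 to 1.912). The order of the clusters thus differed, with cluster 3 above cluster 7 in WT and cluster 7 above cluster 3 in Irx5KO, with intervals that did not overlap in either. A single WT cell held 61 of the 192 Tac2 UMIs of cluster 3. Without the cell with most Tac2 of each cluster in each library (barcodes sharing 11 bases taken as 1 cell), the ratio was 0.927 (0.760 to 1.136) in cluster 3 and 1.641 (1.233 to 2.204) in cluster 7. The intervals of clusters 3 and 7 then overlapped in both libraries, at 605.6 to 859.5 and 400.5 to 649.2 CPM in WT and at 609.04 to 738.0 and 718.7 to 983.04 CPM in Irx5KO. Clusters 1 and 2 each gave 34 Tac2 UMIs in WT and 4 in Irx5KO, and 24 of the 34 in cluster 1 were in a single WT cell. In the cluster resembling the suprachiasmatic nucleus (109 and 69 cells) 0 Tac2 UMIs were counted, which allows up to 12.2 and 16.0 CPM.

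Pdyn had its highest level outside these clusters, in cluster 6, led by Cck, Ppp1r17 and Pdyn (37 WT and 87 Irx5KO cells). There it gave 61 and 224 UMIs, or 587.05 (449.0 to 754.1) and 888.05 (775.6 to 1012) CPM, a ratio of 1.513 (1.135 to 2.042). Cluster 6 gave 0 Kiss1 UMIs in both libraries. In cluster 3 Pdyn gave 23 and 92 UMIs (123.1 and 142.8 CPM), a ratio of 1.16 (0.728 to 1.92), and in cluster 7 it gave 5 and 21 (35.96 and 105.3 CPM). Cluster 6 made up 5.90% of the neuron-like cells in WT and 9.71% in Irx5KO, so that both its share and its Pdyn level were higher in Irx5KO.

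Esr1 was concentrated in cluster 3, with 16 WT and 46 Irx5KO UMIs, or 85.6 and 71.4 CPM (ratio 0.833, 0.463 to 1.577). Outside it, no cluster held more than 3 Esr1 UMIs in WT, and the Ghrh-like cluster 5 held the next most in Irx5KO, 10. Pgr was spread over all 11 clusters in both libraries. In cluster 3 it gave 2 UMIs in WT and 34 in Irx5KO, or 10.7 and 52.8 CPM, a ratio of 4.93 with an interval of 1.26 to 42.3. In cluster 7 Pgr gave 5 and 8 UMIs, or 35.96 and 40.1 CPM. Nhlh2 had its highest WT level in the mammillary-like cluster 10, with 19 UMIs (166.9 CPM) against 8 in Irx5KO (75.4 CPM), a ratio of 0.452 (0.171 to 1.081). In cluster 3 it gave 16 and 51 UMIs, or 85.6 and 79.1 CPM. Tacr3 gave 1 UMI in WT and 12 in Irx5KO in cluster 3 and at most 4 in any other cluster.

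**Figure D3:**
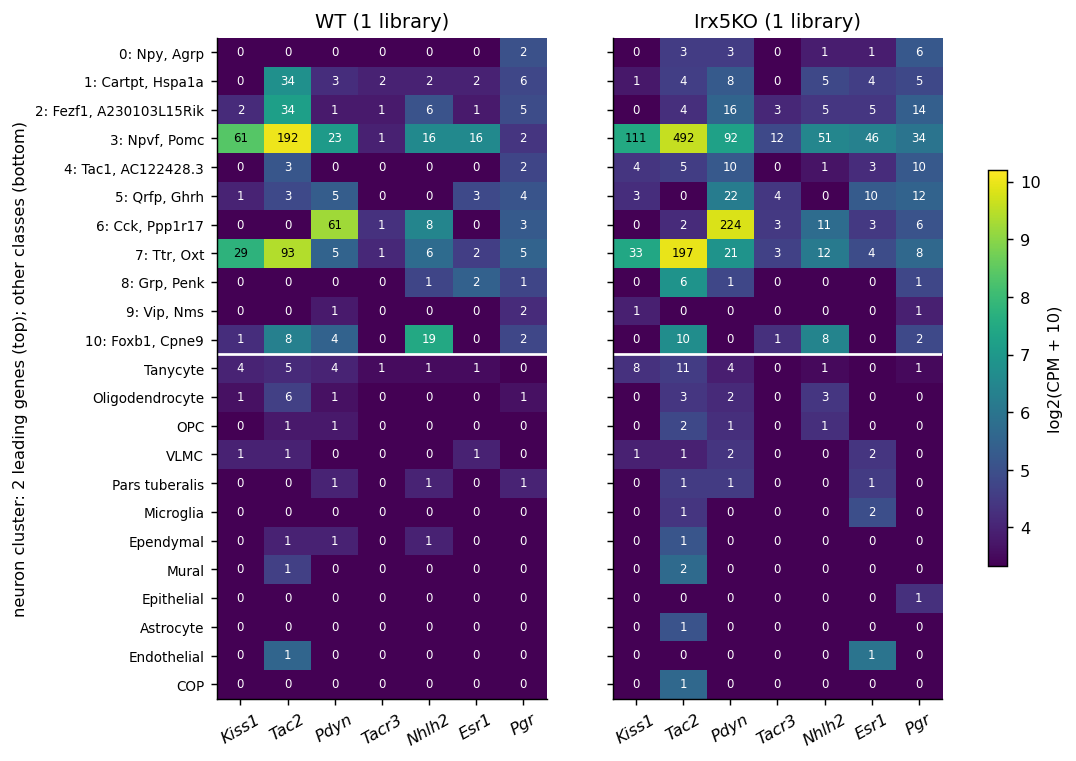
Level of each gene, log2(CPM + 10) as colour, in 11 neuron clusters (above the white line, with their leading genes) and 12 other cell classes (below) of the WT (left) and Irx5KO (right) libraries; the number in each field is the UMI count. Kiss1 and Tac2 share clusters 3 and 7, Pdyn is highest in cluster 6, and Pgr is present in all 11 neuron clusters.

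Cells with kisspeptin transcripts usually held neurokinin B transcripts too. Of 21 WT neuron-like cells with a Kiss1 UMI, 16 also had a Tac2 UMI (76.2%, 52.8 to 91.8), against 3.47% of the 606 cells without Kiss1. In Irx5KO the counts were 28 of 41 (68.3%, 51.9 to 81.9) against 6.20% of 855. With barcodes that share 11 bases summed, they were 16 of 21 in WT and 25 of 35 (71.4%) in Irx5KO. Cells with a Kiss1 UMI were deeper, with a median of 3030 UMIs against 2068 in WT and 4264 against 2355 in Irx5KO. At 1000 UMIs a cell, Tac2 was in 9 of 13 WT cells with Kiss1 (69.2%) against 3.19% of those without, and in 18 of 22 Irx5KO cells (81.8%) against 4.03%. At equal depth Tac2 was thus again more frequent in cells with Kiss1, in both libraries.

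Pdyn, Nhlh2 and Esr1 were also found more often in cells with Kiss1, which were the deeper cells. Pdyn was in 42.9% of them in WT and 65.9% in Irx5KO, against 5.45% and 13.5% of cells without. Nhlh2 was in 33.3% and 31.7%, against 4.95% and 4.56%, and Esr1 in 33.3% and 29.3%, against 1.65% and 5.03%. With barcodes summed, 23 of 35 Irx5KO cells with Kiss1 had Pdyn, 12 had Nhlh2 and 12 had Esr1. Pgr was in 2 of 21 WT cells (9.52%) and 10 of 41 Irx5KO cells (24.4%), against 4.95% and 7.37% of cells without. Tacr3 was in 0 of 21 WT cells, which allows a share of cells with a UMI of up to 14.3% and does not limit the share that expresses it at this depth, and in 6 of 41 Irx5KO cells (14.6%). At 1000 UMIs a cell, Nhlh2 was in 4 of 22 Irx5KO cells with Kiss1 (18.2%, 5.19 to 40.3) against 2.02% (1.13 to 3.30) of those without, with intervals that did not overlap, and in 2 of 13 WT cells (15.4%) against 3.19%. Pdyn was then in 3 of 13 WT cells (23.1%) against 3.39% and in 3 of 22 Irx5KO cells (13.6%) against 8.87%. Esr1 was in 2 of 13 WT cells against 0.80%, and in 0 of 22 Irx5KO cells against 2.15%, so that its pairing with Kiss1 was not detectable at equal depth in Irx5KO. Pgr was then in 0 of 13 WT cells with Kiss1 against 2.20%, and in 0 of 22 Irx5KO cells against 3.63%. Tacr3 was in 0 of 13 WT cells against 0%, and in 0 of 22 Irx5KO cells against 0.94%. The higher shares of Pgr and Tacr3 with Kiss1 in Irx5KO were thus not seen at equal depth. For Nhlh2 in WT, and for Pdyn, Esr1, Pgr and Tacr3 in both libraries, the intervals of cells with and without Kiss1 overlapped at equal depth. Of all neuron-like cells, 491 of 627 in WT and 605 of 896 in Irx5KO had none of the 7 transcripts, 3 and 11 had 5 of them, and 0 had all 7.

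**Figure D4:**
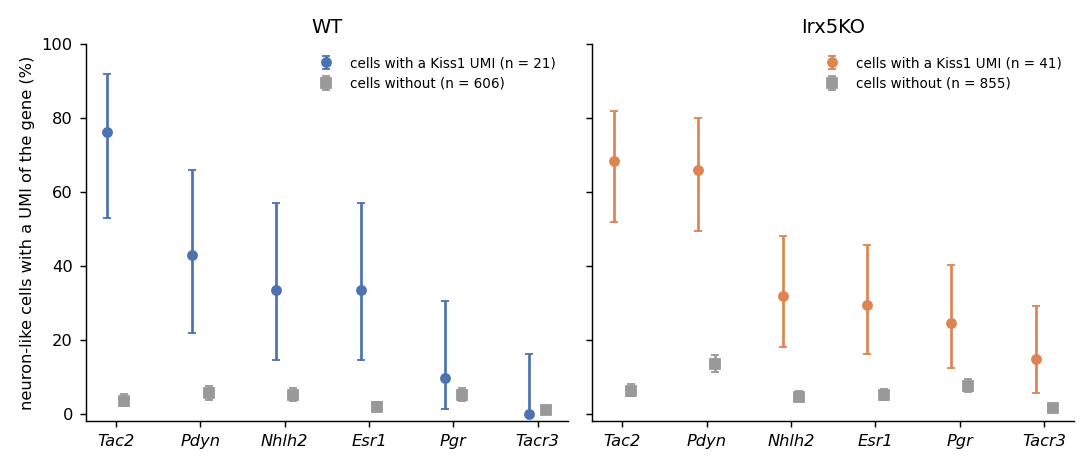
Share of neuron-like cells with a UMI of each gene (vertical, percent) among cells with a Kiss1 UMI (coloured circles) and without (grey squares) in WT (left) and Irx5KO (right), barcodes as deposited; bars are exact 95% binomial intervals and cells with Kiss1 were deeper. Tac2 stands at 76.2% and 68.3% among cells with Kiss1 and at 3.47% and 6.20% among the others.

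A few cells held most of the Tac2 transcripts. Cells with at least 10 Tac2 UMIs, a group chosen after the values were seen, numbered 13 in WT (2.07% of neuron-like cells, 1.11 to 3.52) and 26 in Irx5KO (2.90%, 1.90 to 4.22). They held 301 of 367 and 609 of 723 neuron-like Tac2 UMIs. Their median Tac2 level was 5055 CPM in WT and 5053 in Irx5KO. The cells were chosen by their Tac2 UMIs in both libraries, so these levels cannot show whether Tac2 per cell differed between genotypes. The cells were deeper than neuron-like cells as a whole, at a median of 5150 WT and 4374.5 Irx5KO UMIs against 2129 and 2418.5. The part of this depth in the counts that follow was not tested. Kiss1 was found in 10 of the 13 and 22 of the 26, Pdyn in 5 and 21, Nhlh2 in 5 and 13, Esr1 in 4 and 11, and Pgr in 0 and 7. Slc17a6, which marks glutamatergic neurons, was in 7 and 18, and Slc32a1, which marks GABAergic neurons, in 2 and 2. With barcodes summed the group was again 13 and 26 cells (2.25% and 3.35%), of which 10 and 21 had Kiss1 and 5 and 20 had Pdyn. Next to the limit, 4 WT and 9 Irx5KO cells had 5 to 9 Tac2 UMIs, and 5 and 9 had 10 to 14.

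**Figure D5:**
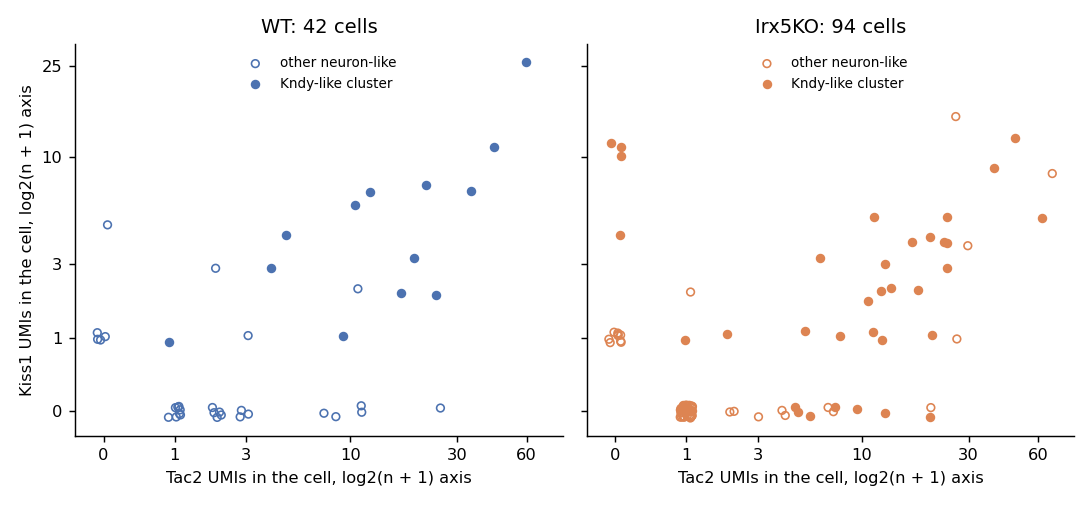
Kiss1 UMIs against Tac2 UMIs in each neuron-like cell with either transcript (both axes log2(n + 1), points jittered) in WT (left, 42 barcodes) and Irx5KO (right, 94 barcodes); filled points are the Kndy-like cluster described in the text. The 4 Irx5KO points with at least 4 Kiss1 UMIs and 0 Tac2 UMIs share the first 11 bases of their barcode.

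The 3 Irx5KO barcodes with 10, 11 and 12 Kiss1 UMIs and 0 Tac2 UMIs differed from each other, and from 1 more with 4 Kiss1 UMIs, only in the last base. Summed, they formed a single cell of 16995 UMIs with 37 Kiss1, 16 Pdyn, 12 Prlr, 6 Slc17a6 and 4 Nr5a2 UMIs and 0 of Tac2, Nhlh2, Esr1 and Slc32a1. Among cells with at least 5 Kiss1 UMIs after summing, 1 of 7 in WT and 1 of 8 in Irx5KO lacked Tac2. Before summing the Irx5KO count was 3 of 10.

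A Kndy-like cluster depended on how the cells were grouped. The name was given from the 7 genes and from Nr5a2, Inhbb and Sox14, so the excess of these genes in the cluster is a description. At the resolution of the 11 clusters no cluster of barcodes as deposited could be so named, while with barcodes summed a cluster of 6 WT and 33 Irx5KO cells could. At resolution 2, chosen after several groupings had been seen, 15 WT and 47 Irx5KO cells formed such a cluster, 2.39% and 5.25% of neuron-like cells. With barcodes summed the cluster at resolution 2 held 6 WT and 34 Irx5KO cells, 1.04% and 4.38%, while the number of cells with at least 10 Tac2 UMIs in WT did not change. In the cluster formed on barcodes as deposited, Kiss1 gave 79 WT and 114 Irx5KO UMIs, or 1615 and 777.5 CPM, a ratio of 0.481 (0.358 to 0.650), and Tac2 gave 263 and 489 UMIs, or 5378 and 3335 CPM, a ratio of 0.620 (0.533 to 0.723). Both were lower in Irx5KO, as were 15.5% of the 750 genes with enough UMIs in the cluster, while 14% were higher and 29.5% were either. Kiss1 was in 13 of 15 WT and 27 of 47 Irx5KO cells of the cluster, and Tac2 in 13 and 33. The cells had a median of 2986 and 2360 UMIs. The part of this lower share of cells with a UMI in the lower levels was not tested. The Kiss1 call was kept under all 12 alternatives tried. Of these, resolution 2 for all cells gave the same values as reported. With barcodes summed, 25 of the cluster's 42 WT Kiss1 UMIs were in a single cell. In the cluster formed on barcodes as deposited, the Kiss1 ratio without the top cell of each library was 0.472 (0.329 to 0.682). At 200 genes a cell the cluster was another, with Tac2 in 5 of 26 WT and 3 of 23 Irx5KO cells. The Tac2 call was lost with doublets kept (0.824), at 200 genes a cell (0.885) and as a mean of the cells' own values (0.715). It was also lost with the 7 genes in the clustering (0.751, and 0.875 at resolution 1). Pdyn gave 18 and 59 UMIs, a ratio of 1.093 (0.636 to 1.970), or 1.777 without the barcode with most Pdyn in each library. The cluster's leading genes other than the 7 were Ttr, with 293 UMIs in a single WT cell and 0 in Irx5KO, Gm12152, with 80 UMIs in a single Irx5KO cell, Gm16148, with 58 UMIs in 3 Irx5KO cells, Prlr (28 and 82 UMIs) and Olfm2 (28 and 63).

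Over cell classes and neuron clusters, the gene most like Kiss1 in level was Tac2, by the lower of its Pearson's r values in the 2 libraries. Its r was 0.85 in WT (20 classes and clusters) and 0.76 in Irx5KO (21), where that of Prph was higher. The 5 other genes most like Kiss1, by the lower of the 2 r values among 10908 genes, were Sv2b (0.74 and 0.69), Prph (0.68 and 0.78), Tmem215 (0.61 and 0.67), Sv2c (0.74 and 0.60) and F730043M19Rik (0.71 and 0.60). For Tac2 they were Aard (0.64 and 0.66), Tmem215 (0.66 and 0.62), Prph (0.82 and 0.58), Calb1 (0.56 and 0.55) and C2cd4c (0.55 and 0.54). The points of a library share its depth and dissection, and rest mainly on clusters 3 and 7, so these r values are descriptions.

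Other genes of the circuit were read from lists of related genes in neuron-like cells. In the list of KNDy signalling genes, 9 of 17 had at least 50 UMIs, 2 were higher in Irx5KO (Pdyn and Pnoc) and 1 was lower (Penk), with a median log2 ratio of 0.17, where 12.4% of all genes with that count were higher and 6.47% were lower. With a minimum of 20 UMIs, 5 genes of the list differed by 1.5-fold in either direction, as did 24.9% of all genes. Pnoc, the nociceptin precursor gene, gave 76 WT and 218 Irx5KO UMIs, a ratio of 1.684 (1.291 to 2.216). Penk, the enkephalin precursor gene, gave 385 and 223, a ratio of 0.340 (0.287 to 0.402). The opioid peptide genes thus stood on both sides. Oprk1, the kappa opioid receptor gene, gave 45 and 101 UMIs, a ratio of 1.317 (0.918 to 1.916). Kiss1r, the kisspeptin receptor gene, gave 4 and 8 UMIs in neuron-like cells and 9 and 15 in all cells, and Gnrh1 gave 3 and 6 in all cells.

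In the list of steroid receptors and cofactors 16 of 20 genes had enough UMIs. Of these 3 were higher in Irx5KO (Esr1, Pgr and Fkbp5) and 1 was lower (Ncoa3), with a median of 0.11, where 18.9% of all genes were either. This count is near that of all genes. Fkbp5, a chaperone partner of steroid receptors, had a ratio of 1.535 (0.964 to 2.514) from 26 and 68 UMIs, and Ncoa3, a nuclear receptor coactivator, 0.642 (0.386 to 1.071) from 32 and 35, both with intervals that include 1. Esr2 gave 1 UMI in WT and 0 in Irx5KO over all cells. Of the steroid synthesis genes 2 of 9 had enough UMIs and 0 differed by 1.5-fold.

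Among 17 developmental regulators 13 had enough UMIs, 3 were higher and 2 lower in Irx5KO, with a median of -0.05, beside the same 12.4% and 6.47% of all genes. Nr5a2, a nuclear receptor gene, gave 9 WT and 46 Irx5KO UMIs in neuron-like cells, a ratio of 3.0 (1.45 to 6.97). In the Kndy-like cluster were 1 of the 9 WT and 22 of the 46 Irx5KO UMIs. Nr5a2 is among the markers used to name that cluster, so its place there is a description. Otp and Bsx, homeobox genes of Agrp neurons, had ratios of 1.736 (1.239 to 2.471) and 1.837 (1.215 to 2.848), beside an Agrp-like cluster that made up 2.07% of the neuron-like cells in WT and 4.80% in Irx5KO. Six6 and Six3, homeobox genes of the anterior hypothalamus, had ratios of 0.573 (0.470 to 0.699) and 0.649 (0.560 to 0.752), beside the lower share of cells resembling the suprachiasmatic nucleus. Of 17 receptors for inputs to KNDy cells 12 had enough UMIs, 2 were higher and 0 lower, with a median of 0.26, a count near the 12.4% of all genes that were higher. Npy1r, a neuropeptide Y receptor gene, gave 44 and 173 UMIs, a ratio of 2.308 (1.649 to 3.291), and Igf1r, the insulin-like growth factor receptor gene, gave 28 and 88, a ratio of 1.845 (1.194 to 2.933).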

How the data were processed

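Drop-seq libraries of WT and Irx5KO arcuate nucleus and median eminence were compared, 1 pool of mice each. Tools listed in the submitters' processing notes are Seurat 3, STAR 2.6.0b, Picard and bcl2fastq, with the mm10 build. The authors deposited raw UMI counts for WT (2800 barcodes, 28008 genes). For Irx5KO (2350 barcodes, 26840 genes) and a merged table of 4977 barcodes, the authors' deposited values are natural log values of 1 plus the count scaled to 10000 per cell, per the file contents. Counts were recovered from these (100% whole within 1e-06), and the WT UMIs in the merged table (4275938) matched the WT table with 0 values differing. Barcodes under 500 genes or over 20% mitochondrial UMIs were dropped, and doublets called by Scrublet in scanpy 1.11.5 (10 WT, 23 Irx5KO) were removed. Cells were clustered without integration, on 2000 variable genes, 30 components and 15 neighbours, by the Leiden method at resolution 1, and named from marker lists. Neuron-like cells were clustered again without the 7 genes. A Kndy-like name needed a marker among the first 3 leading genes and 2 among 10, a rule added after clusters were seen. The Kndy-like markers were the 7 genes, Nr5a2, Inhbb and Sox14. Counts were summed per library and class, and given as CPM with exact Poisson, binomial (Clopper-Pearson) or conditional ratio intervals (95%). A difference was called at 1.5-fold with at least 50 UMIs, since 1 library a group allows no test. The ratio code was tested on simulated data. The genes named are the 7, the list genes past 1.5-fold, Irx5, Esr2, Kiss1r, Oprk1, Gnrh1 and Nr5a2, the 5 genes most like Kiss1 and Tac2 in level, and the 5 leading genes of Kndy-like cells; another gene under this rule is not reported here. Xist, Ddx3y, Gh, Npvf, Slc17a6 and Slc32a1 were added after values were seen. The 7 genes and the lists were chosen with earlier results of these data known. Gene positions are from the GENCODE annotation of mm10.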

Additional observations from a re-analysis of the deposited data

How the results depend on the processing

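Limits: 1 library a genotype, 3' ends alone, and barcodes that may share a bead. For the 6 genes with enough UMIs, 46 of 48 alternative ratios over all cells and 74 of 78 in neuron-like cells kept their 1.5-fold call or its absence; the alternatives were cell filters, doublets kept, scalings (TMM and median of ratios, which shift log2 ratios by 0.04 and 0.05), clusterings, the merged table alone, summed barcodes, the weighting, means of the cells' own values and leaving out the cell with most UMIs. Over all cells Tac2 lost its call at 800 genes (log2 0.58) and Kiss1 gained one without its top barcode (0.66). That step left in the 4 Irx5KO barcodes that together held 37 Kiss1 UMIs. Clustering all cells at resolution 2 gave the same numbers of neuron-like cells as reported, 627 and 896, so it was hardly an alternative for their sums. The barcode sums, the weighting, resolution 1 with the 7 genes, the cell with most Ttr left out and, after summing barcodes, the cell with most UMIs of each gene left out were added after seeing the data. In neuron-like cells, with Irx5KO clusters weighted as in WT, Esr1 (log2 0.27) and Pgr (0.50) lost their calls, Kiss1 (-0.64) gained one, Pdyn (0.71) kept its call and Tac2 (-0.25) had none, though both left the counting interval of the reported ratio. Nhlh2 gained a call, -0.59, as a mean of the cells' own values; the cause was not tested. Leaving out the barcode with most Kiss1 in each library turned its log2 ratio from -0.07 to 0.23, short of a call. With barcodes that share 11 bases taken as 1 cell, leaving out the top cell gave -0.02. No paired analysis was possible because each group had 1 library.

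The Kndy-like cluster moved most, and at resolution 1 without the 7 genes there was no such cluster and no value for barcodes as deposited. With at least 200 genes a cell, the log2 ratio of its share of neuron-like cells reversed from 1.13 to -0.31, in a cluster where 5 of 26 WT and 3 of 23 Irx5KO cells had Tac2; with barcodes summed it was 2.08. The Kiss1 log2 ratio in the cluster moved from -1.05 to -1.89 at 200 genes. That of Tac2, -0.69, moved to -0.18 at 200 genes, -0.41 with the 7 genes in the clustering, -0.28 with doublets kept and -0.19 at resolution 1 with the 7 genes. The cluster's share of neuron-like Kiss1 UMIs, 84.0% in WT and 74.5% in Irx5KO, was 41.7% and 8.00% at 200 genes. For Irx5KO it was 88.5% at 800 genes, 85.0% at 10% mitochondrial, 65.4% with the merged table alone and 92.2% with the 7 genes at either resolution; for WT it was 44.7% with the merged table alone or summed barcodes and 95.7% at resolution 1 with the 7 genes. The share of Tac2 UMIs, 71.7% and 67.6%, was 29.6% and 15.5% at 200 genes and 36.5% and 49.0% with the merged table alone. With summed barcodes it was 36.02% and 73.3%. For Irx5KO it was also 82.0% at 800 genes, 75.2% at 10% mitochondrial and 89.3% with the 7 genes at either resolution. The share of Nhlh2 UMIs, 31.0% and 20.2%, was 17.7% and 7.45% at 200 genes, and in Irx5KO 36.7% at 800 genes, 33.0% at 10% mitochondrial, 31.2% with summed barcodes and 38.3% with the 7 genes at either resolution. For Pdyn in Irx5KO it was 2.49% at 200 genes. These shares are descriptions, because the 7 genes were used to name the cluster.

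With 20 UMIs as the minimum, 5 input genes, 5 KNDy signalling genes and 1 steroid synthesis gene passed 1.5-fold in either direction; at 200 genes a cell 1 input gene did, and at 10% mitochondrial 2 steroid receptor or cofactor genes did. Thinned to 1000 UMIs, the shares of neuron-like cells with a UMI in WT and Irx5KO were 3.89% and 9.01% for Pdyn, 1.17% and 2.09% for Esr1, 2.14% and 3.52% for Pgr, 3.50% and 2.48% for Nhlh2 and 0% and 0.91% for Tacr3, and in Irx5KO 2.87% for Kiss1 and 6.27% for Tac2. The 2 libraries' intervals stood apart for Pdyn and overlapped for the other 6 genes.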
